A study of Mus musculus with 14 samples.

Results

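RNA of the total brainstem homogenate was compared between mice infused in the locus coeruleus with a mutant human tau and mice infused with a fluorescent control protein. The comparison used every homogenate library of the series, 7 of its 14 libraries, 1 per animal. Tau homogenates came from 4 animals (B, C, L and M), and control homogenates came from 3 (H, I and K). The other 7 libraries were ribosome immunoprecipitates (IP) of the same animals, and the homogenate was taken before that step (pre-IP).

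All 7 mice carried Cre recombinase driven by Th, the gene of tyrosine hydroxylase, together with the Slc6a2-eGFP/Rpl10a transgene, which tags ribosomes of noradrenergic cells with green fluorescent protein. The labels give a C57Bl/6 background and stereotaxic infusion at an age of 2 to 3 months. Tau animals received human tau with the P364S substitution, and control animals received enhanced yellow fluorescent protein (EYFP). No uninfused group was analysed here, and the delay between infusion and tissue collection is not given in the sources used here. The tissue is labelled as brainstem, so each library mixes the infused nucleus with all surrounding cell types.

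Tau is a protein of axons that binds and stabilizes microtubules, and its phosphorylated, aggregated form fills neurons in Alzheimer disease. The locus coeruleus, the small nucleus in the pons that supplies the forebrain with noradrenaline, is among the first places where such tau is seen. Its neurons make noradrenaline through tyrosine hydroxylase and dopamine beta-hydroxylase and take it back up through the transporter encoded by Slc6a2. They are few, so in a homogenate most RNA comes from other neurons, glia and vessels. A lower level of a gene in such bulk RNA cannot be told apart as fewer cells of a type or less RNA per cell.

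The 7 libraries held 41843489 to 62043336 counts assigned to genes. Levels are in CPM, counts per 1000000 of a library's total. A floor of 3 counts was worth between 0.0484 and 0.0717 CPM, and it covers counting error only. RNA integrity numbers ran from 7.8 to 8.3 in tau and from 7.7 to 8.3 in EYFP libraries. Library numbers formed separate ranges. Tau animals B and C and EYFP animals H and I had numbers up to 11, while L, M and K had numbers from 17. This range entered the fit as a covariate. The read GC content was 52.08 to 52.14% in the lower range and 52.56 to 52.74% in the upper. Between the ranges 701 of 19197 genes (3.65%) passed an edgeR adjusted p of 0.05, and what differed in handling between them is not stated in the labels. By the labels B, L and I were male, and C, M, H and K were female. The homogenate library of M, labelled female, held 674 counts of Y-linked genes and 0 of Xist. The IP library of M held 1153 Y-linked counts and 21 of Xist, so the sex of M is uncertain. In the homogenate, L held 1096 Y-linked counts, and K held 0 with 32 of Xist. By the homogenate counts, sex and treatment cannot be told apart in the upper range. All CPM below were scaled by the trimmed mean of M-values (TMM), and differences were taken as tau minus EYFP on the log2 scale.

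The human tau construct, hTauP364S, was examined first because it checks the labels. Its level was 127.9 CPM in B, 66.6 in C, 88.9 in L and 188.6 in M. In EYFP animals it was 0.180 in H, 0.0401 in I and 7.78 in K. Every tau library was thus above every EYFP library, but K stood apart from the other control animals. K held 408 construct counts, where H held 8 and I held 2. The means were 118.0 ± 53.5 CPM in tau (SD, n = 4) and 2.67 ± 4.43 CPM in EYFP libraries (SD, n = 3). The two-sided exact permutation p for the difference in means, 115.3 CPM, was 0.0571 over 35 splits, where 0.0286 is the smallest possible. On the log2 scale and with CPM of the library totals, the exact permutation p was 0.0286. The edgeR log2 fold change was 5.96 (SE 0.84, adjusted p 0.328). DESeq2 called the construct on the same 7 libraries (log2 fold change 7.17, adjusted p 0.000397). Without K the edgeR value was 9.82 (adjusted p 2.37e-05). K is the only EYFP library in the upper range. With the range as covariate, a fit without K sets B and C against H and I. L and M then no longer inform the contrast. Results below are given without K where this changes them, and such changes cannot be assigned to K alone.

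Mouse Mapt, the endogenous tau gene (ENSMUSG00000018411.17, chromosome 11, 104231390 to 104332090 in GRCm38), had 323 CPM in B, 342 in C, 271 in L and 335 in M. It had 253 CPM in H, 234 in I and 324 in K. The groups overlapped, with K as high as B. The log2 fold change was 0.23 (SE 0.14, edgeR adjusted p 1.0). In the lower range the difference was 0.45, and in the upper it was -0.10.

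**Figure D1:**
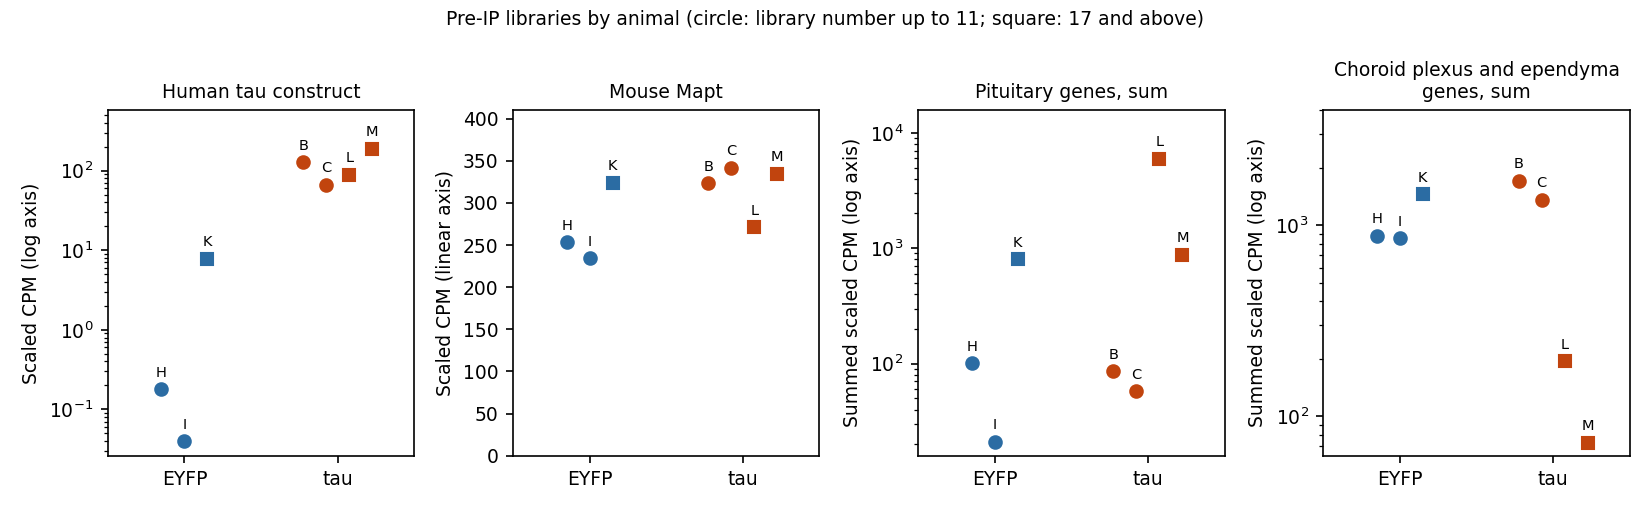
Scaled CPM per animal of the human tau construct (log axis), of mouse Mapt (linear axis) and summed over the pituitary and the choroid plexus and ependyma genes (log axes), with EYFP animals in blue, tau animals in orange, circles for library numbers up to 11 and squares for those from 17. K held 7.78 CPM of the construct, and the choroid plexus sum was lowest in L and M.

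The question put to the 7 libraries was which homogenate RNAs differed with tau. Across 19197 genes tested, 0 passed an edgeR adjusted p of 0.05 (0.0%), and the smallest adjusted p was 0.328. At an unadjusted p under 0.05 there were 1000 genes (5.21%). In tau 152 of these (0.792%) were higher and 848 (4.42%) were lower. Tau and EYFP levels were fully separate for 601 genes (3.13%), with 259 (1.35%) higher in tau and 342 (1.78%) lower. The median log2 fold change over all genes was 0.00, and 9504 genes (49.5%) had a value above 0. DESeq2 (Wald test) called 20 genes, of which 2 were higher and 18 lower. With limma voom and sample quality weights 0 were called, and 186 higher and 898 lower genes had an unadjusted p under 0.05.

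The excess of lower over higher genes moved when single animals were left out. Among the 848 lower genes, K was the highest of the 7 libraries in 613 (72.3%) and B the lowest in 566 (66.7%). Over all tested genes these shares were 17.4% and 18.5%. Without K, which leaves B and C against H and I, the split was 580 higher and 626 lower, so that the excess nearly closed. Without B it was 86 higher and 467 lower. These 848 genes were selected on the same values, so the shares describe them and test nothing.

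The ranges gave different pictures of the contrast. Among 14994 genes with a mean of at least 1 CPM, the difference had the same sign in both ranges for 44.2%. Pearson's r between the ranges was -0.03 and Spearman's rank correlation -0.11 across these genes, which share libraries and are not independent. In all, 3764 of these genes were lower with tau in both ranges and 2868 were higher in both. The 4297 genes higher in the lower range and lower in the upper outnumbered either group. The SD of the difference across these genes was 0.25 in the lower range and 0.35 in the upper, where K stands alone for EYFP.

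**Figure D2:**
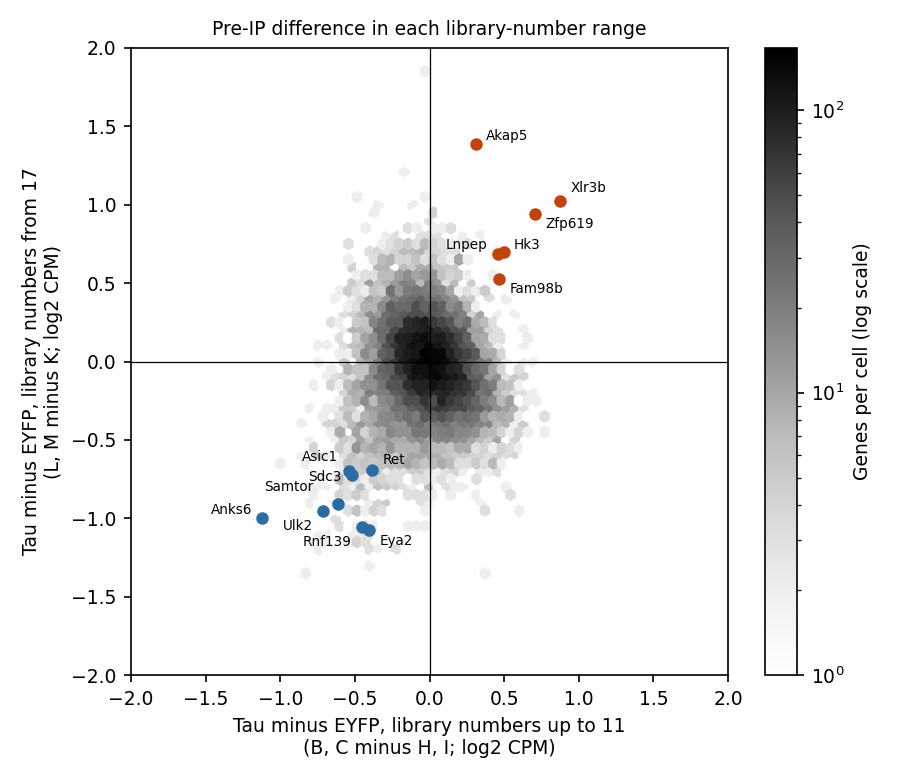
Tau minus EYFP difference in log2(CPM + 0.5) of each gene with a mean of at least 1 CPM, in the libraries numbered up to 11 (horizontal) and from 17 (vertical), shaded by the number of genes per hexagon on a log scale. The cloud has no diagonal, with 44.2% of genes on the same side of 0 in both ranges; 35 genes lie outside the plotted area, and the labelled genes are those with the smallest p-values in either direction, where Fshb and Cga lie outside it.

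Genes with the smallest p-values are described next, 8 in each direction, and none of them passed the threshold. Among the lower genes Anks6, Rnf139, Ulk2 and Samtor had no overlap between the groups. Anks6 (ENSMUSG00000066191.12, chromosome 4, 47015669 to 47057427), which encodes an ankyrin repeat protein of the primary cilium, had 2.97 CPM in B, 2.64 in C, 5.90 in L and 3.405 in M. It had 7.43 CPM in H, 5.99 in I and 9.48 in K. The highest tau library, L, lay just under the lowest EYFP library, I. The log2 fold change was -1.16 (SE 0.21, edgeR unadjusted p 0.000141, adjusted p 0.673), and the difference was -1.12 in the lower and -0.997 in the upper range. DESeq2 called it, with an adjusted p of 0.000397.

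Ulk2 (ENSMUSG00000004798.14, chromosome 11, 61775649 to 61855073) encodes a kinase that starts autophagy, the enclosure of cell contents for breakdown in lysosomes. It had 19.8 CPM in B, 29.9 in C, 27.1 in L and 17.8 in M. It had 44.1 CPM in H, 36.5 in I and 43.0 in K. Every tau animal was below every EYFP animal, and K was not set apart from H. Ulk2 had a log2 fold change of -0.80 (SE 0.18; adjusted p 0.673 in edgeR), from -0.71 in the lower to -0.95 in the upper range.

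Samtor (ENSMUSG00000042742.7, chromosome 6, 13625673 to 13677966), whose protein senses S-adenosylmethionine for the growth regulator mTORC1, had 6.86 CPM in B, 10.4 in C, 5.86 in L and 6.41 in M. Its EYFP levels were 13 CPM in H, 13.4 in I and 11.9 in K. The EYFP animals lay close together, above all tau animals. Its fitted difference was -0.75 (SE 0.17, edgeR adjusted p 0.673).

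Rnf139 (ENSMUSG00000037075.7, chromosome 15, 58889229 to 58907057), a ubiquitin ligase of the endoplasmic reticulum, had 9.88 CPM in B, 10.5 in C, 10.8 in L and 9.05 in M. It had 14.4 CPM in H, 13.9 in I and 21.1 in K. The tau animals lay within a narrow band and K stood well above H and I. The fitted log2 difference was -0.73 (SE 0.15, edgeR adjusted p 0.673).

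The other lower genes were Asic1, Ret, Sdc3 and Eya2, and their groups overlapped. Asic1 (ENSMUSG00000023017.10, chromosome 15, 99670368 to 99701130) encodes a proton-gated sodium channel and had a log2 fold change of -0.60 (SE 0.12). Its tau levels ran from 37.1 to 74.3 CPM, against 62.1 in H, 56.6 in I and 106 in K. Ret (ENSMUSG00000030110.13, chromosome 6, 118151745 to 118197718), the signalling receptor for ligands of the glial cell line-derived neurotrophic factor family, had a log2 fold change of -0.51 (SE 0.11). Its tau levels ran from 32.1 to 45.6 CPM, against 43.9 in H, 43.7 in I and 71.6 in K. Sdc3 (ENSMUSG00000025743.14, chromosome 4, 130792537 to 130826319), a heparan sulfate proteoglycan of neuronal surfaces, had a log2 fold change of -0.59 (SE 0.12). Eya2 (ENSMUSG00000017897.18, chromosome 2, 165595032 to 165771727), a transcriptional coactivator with phosphatase activity, had a log2 fold change of -0.71 (SE 0.16). For each of these 4 genes K was the highest library and the edgeR adjusted p was 0.673. DESeq2 called 7 of the 8 lower genes, all but Ret, with adjusted p-values up to 0.0423.

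Of the 8 higher genes, Zfp619, Hk3 and Fam98b had no overlap. Hk3 (ENSMUSG00000025877.14, chromosome 13, 55005985 to 55021385), the hexokinase found in myeloid cells, had 2.13 CPM in B, 2.40 in C, 2.47 in L and 3.09 in M. It had 1.30 CPM in H, 1.62 in I and 1.51 in K. Both groups were narrow. The log2 fold change was 0.73 (SE 0.22, edgeR adjusted p 0.673), with differences of 0.50 in the lower and 0.70 in the upper range.

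Zfp619 (ENSMUSG00000068959.6, chromosome 7, 39517766 to 39540420), a zinc finger protein gene, had 2.11 CPM in B, 1.13 in C, 1.23 in L and 1.23 in M. It had 0.763 CPM in H, 0.761 in I and 0.400 in K. B stood above the other tau animals. Its fitted log2 difference was 1.28 (SE 0.32, edgeR adjusted p 0.673). Zinc finger genes have close relatives, so reads of similar sequence could be shared among them.

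Fam98b (ENSMUSG00000027349.5, chromosome 2, 117249739 to 117271540), a subunit of the tRNA ligase complex, ran from 5.38 to 6.86 CPM in tau and from 3.70 to 5.03 in EYFP animals. This gave a log2 fold change of 0.54 (SE 0.17; adjusted p 0.679 in edgeR). Lnpep (ENSMUSG00000023845.7, chromosome 17, 17521410 to 17625050), an aminopeptidase that cleaves oxytocin and vasopressin, had a fitted log2 difference of 0.58 (SE 0.14, edgeR adjusted p 0.673). Its groups overlapped across the ranges, with 9.98 CPM in M below 12.6 in H. Within each range, every tau library was above every EYFP library.

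Akap5 (ENSMUSG00000021057.15, chromosome 12, 76324891 to 76334153), which anchors protein kinase A at synapses, had 23.7 CPM in B, 20.2 in C, 35.6 in L and 27.2 in M. It had 14.8 CPM in H, 20.7 in I and 11.6 in K. Only C and I were out of order. The log2 fold change was 0.73 (SE 0.23, edgeR adjusted p 0.685). Xlr3b (ENSMUSG00000073125.10, chromosome X, 73192207 to 73202930) had 6.61 ± 1.68 CPM in tau (SD, n = 4) and 3.42 ± 1.34 CPM in EYFP libraries (SD, n = 3), a log2 fold change of 1.03 (SE 0.27; adjusted p 0.673 in edgeR). DESeq2 called it with an adjusted p of 0.0486. It belongs to a family of near-identical copies on the X chromosome, and its count is uncertain.

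The last of the 8 higher genes, Fshb and Cga, encode hormone subunits of the pituitary. Fshb (ENSMUSG00000027120.6, chromosome 2, 107056140 to 107059656), the beta subunit of follicle-stimulating hormone, had 0.460 CPM in B, 0.0377 in C, 34.4 in L and 3.75 in M. It had 0.0898 CPM in H, 0 in I and 0.0381 in K. EYFP levels were at or near the floor and the level in L set the tau mean, so no fold is given (edgeR unadjusted p 0.00133, adjusted p 0.673). Cga (ENSMUSG00000028298.10, chromosome 4, 34893779 to 34907370), the alpha subunit shared by glycoprotein hormones, had 1.09 CPM in B, 0.434 in C, 107 in L and 12.4 in M. It had 0.449 CPM in H, 0.02004 in I and 3.85 in K. The groups overlapped, and levels were high in the upper range of library numbers in both treatments.

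**Figure D3:**
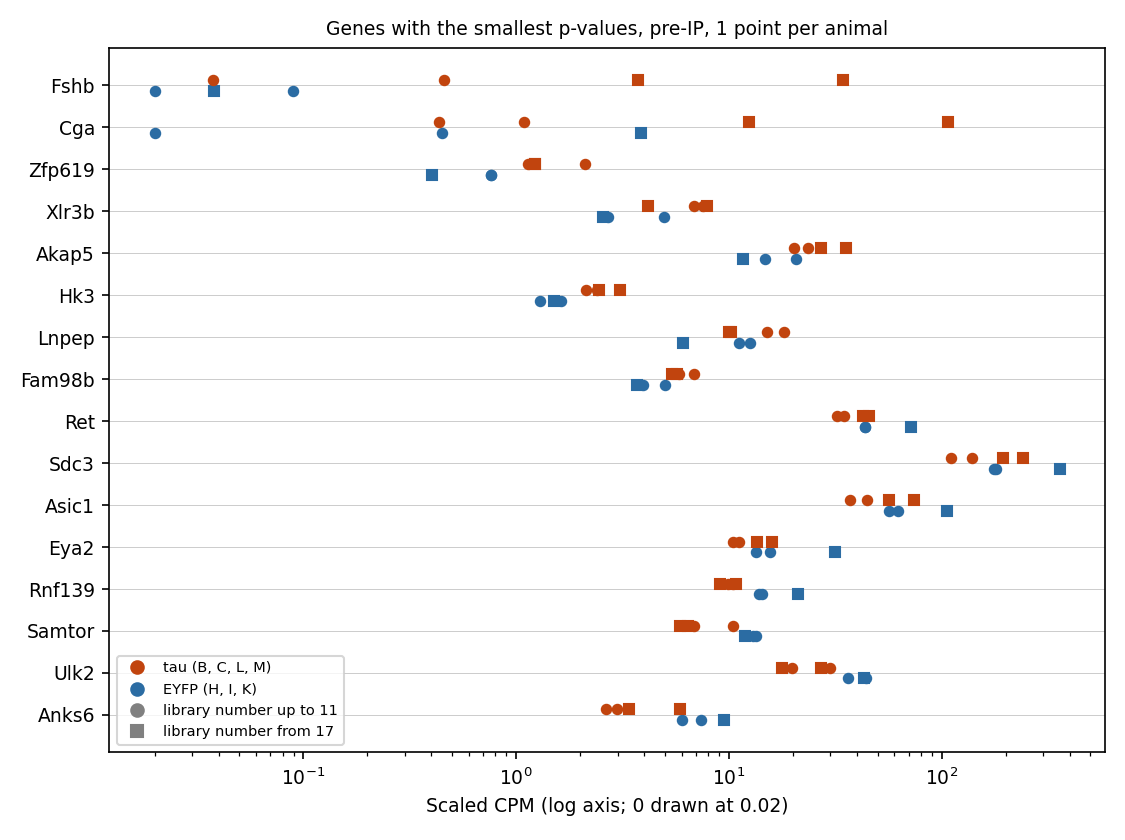
Scaled CPM (log axis) of the 16 genes with the smallest p-values, 8 per direction, with 1 point per animal, tau in orange, EYFP in blue, circles for library numbers up to 11 and squares for those from 17; the 0 of Fshb in I is drawn at 0.02. The groups do not overlap for Anks6, Rnf139, Ulk2, Samtor, Zfp619, Hk3 and Fam98b, and K is the rightmost point for Ret, Sdc3, Asic1, Eya2, Rnf139 and Anks6.

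Tissue makeup was read from marker lists, since the pieces of brainstem could differ. The pituitary sum over 12 genes was 85.7 CPM in B, 57.4 in C, 5946 in L and 880.3 in M. It was 100.8 CPM in H, 21.1 in I and 801.6 in K. L was above all others, and the whole upper range was above the lower. Gh, which encodes growth hormone, had 4492 CPM in L and 3.49 in I. Pou1f1, a factor that defines the hormone-making lineages, had 7.85 CPM in L and 0 in B, H and I. Of the 10 tested pituitary genes, 3 were higher and 0 lower at an unadjusted p under 0.05, against 0.792% and 4.42% of all genes. The median log2 fold change was 1.29, and it was 0.40 without L.

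Summed genes of the choroid plexus and ependyma, which line and fill the ventricles, were low in L and M. Their sum over 12 genes was 1710 CPM in B, 1358 in C, 193.9 in L and 72.9 in M. It was 879.8 CPM in H, 854.7 in I and 1451 in K. L and M were the lowest of all animals, B was the highest, and K, of the same range as L and M, was the next highest. Ttr, the thyroid hormone carrier made by choroid plexus, had 24.02 CPM in M and 1593 in B, where it was most of the sum. Not every member followed the sum. Foxj1, Ccdc153 and Dynlrb2 had 24.2, 11.3 and 8.56 CPM in L, each the highest of all homogenate libraries. In M the same genes were each the lowest. The median log2 fold change of the list was -0.23, with 0 of 12 genes at an unadjusted p under 0.05. The median difference was 0.35 in the lower and -0.998 in the upper range, and without K the fitted median was 0.38. The part of these tissues in the other gene differences was not tested.

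Meningeal fibroblast genes had a median log2 fold change of -0.27, with 11 of 12 below 0, where 49.5% of all genes were above 0. At an unadjusted p under 0.05, 0 were higher and 2 lower, against 0.792% and 4.42% of all genes. Those were Igf2, an insulin-like growth factor (log2 fold change -0.95, SE 0.25), and Slc22a6, an organic anion transporter (-0.37, SE 0.15), with edgeR adjusted p-values of 0.673 and 0.819. Without K the median was 0.16. Cerebellar granule and Purkinje cell genes summed to 138.9 to 470 CPM in tau and 194.2 to 318.6 in EYFP animals. Regional factors of the hindbrain summed to 73.0 to 108 CPM in tau and 69.1 to 112 in EYFP animals, and those of the forebrain to 13.3 to 27.4 and 17.2 to 29.4 CPM. The summed hindbrain factors were above those of the forebrain in every library, as the brainstem label implies, and the groups overlapped. Hoxb5 alone held 35.3 to 60.5 CPM of the hindbrain sum, which thus rests largely on that gene.

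The noradrenergic list was at 382.4 to 439.4 CPM in tau and 358.5 to 479.0 in EYFP animals, summed over 12 genes. Cyb561 alone held 163.9 to 206.2 CPM of the sum, far more than Dbh or Slc6a2. The sum therefore says little about those genes or the infused neurons. The median log2 fold change of the list was -0.04 (0.05 without K), with 5 genes above and 7 below 0. Dbh, which encodes dopamine beta-hydroxylase (ENSMUSG00000000889.8, chromosome 2, 27165233 to 27183200), had 10.9 CPM in B, 8.15 in C, 13.1 in L and 15.6 in M. It had 11.4 CPM in H, 8.396 in I and 27.7 in K. K was the highest and all others lay within 8.15 to 15.6 CPM. In the fit Dbh differed by -0.43 (SE 0.20, edgeR adjusted p 0.979). It was -0.05 in the lower and -0.93 in the upper range.

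Slc6a2, the noradrenaline transporter gene that also drives the ribosome tag (ENSMUSG00000055368.14, chromosome 8, 92960079 to 93001667), had 5.14 CPM in B, 5.32 in C, 6.66 in L and 8.65 in M. It had 5.68 CPM in H, 4.83 in I and 16.9 in K. Again K alone stood apart. In the fit Slc6a2 was at -0.50 (SE 0.22, edgeR unadjusted p 0.0478, adjusted p 0.947), and without K it was 0.01. Of the 12 noradrenergic genes, 0 were higher and 1 lower at an unadjusted p under 0.05, against 0.792% and 4.42% of all genes. Th, which the Cre driver follows, had 52.8 to 80.9 CPM in tau and 50.1 to 66.8 CPM in EYFP animals.

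Receptors through which noradrenaline and other transmitters act on the locus coeruleus were measured as a list of 17 genes. At an unadjusted p under 0.05, 0 were higher and 3 lower, against 0.792% and 4.42% of all genes, and the median log2 fold change was -0.05. Adra2a and Adra2c encode alpha-2 adrenergic receptors, which restrain noradrenaline release. Adra2a had 5.25 CPM in B, 7.17 in C, 15.1 in L and 9.20 in M, and in EYFP animals 9.39 CPM in H, 8.54 in I and 23.3 in K. Its log2 fold change was -0.70 (SE 0.19, edgeR adjusted p 0.673). Adra2c had 2.97 CPM in B, 5.96 in C, 10.3 in L and 3.99 in M, and in EYFP animals 7.09 CPM in H, 7.25 in I and 17.2 in K. Its log2 fold change was -0.93 (SE 0.31, edgeR adjusted p 0.687). For both, tau was below EYFP within each range, K was the highest library, and L overlapped the EYFP animals.

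Glial lists were close to the median of all genes. The median log2 fold change was -0.01 for 12 astrocyte, -0.01 for 12 reactive astrocyte, -0.01 for 12 oligodendrocyte and -0.07 for 12 homeostatic microglial genes. None of these genes had an unadjusted p under 0.05. Among 16 genes of reactive microglia the median was 0.08, also with 0 under 0.05. Oligodendrocyte precursor genes had a median of -0.11 over 10 genes. At an unadjusted p under 0.05, 0 were higher and 1 lower, against 0.792% and 4.42% of all genes. That was Olig2, a transcription factor of that lineage. It had a log2 fold change of -0.74 (SE 0.26; adjusted p 0.749 in edgeR) with K the highest at 26.1 CPM. Each glial median was higher without K, at 0.19 for reactive astrocytes and 0.28 for reactive microglia.

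The medians of inflammatory lists moved when K was left out, which leaves B and C against H and I. With all 7 libraries they were 0.03 for 20 genes of the type I interferon response, 0.04 for 20 of complement and cytokines, and 0.03 for 14 of antigen presentation. Without K they were 0.21, 0.15 and 0.22. Psmb8, a subunit of the immunoproteasome, was the single listed gene of these with an unadjusted p under 0.05. It had 7.88 CPM in B, 6.36 in C, 7.85 in L and 7.61 in M, against 5.16 CPM in H, 5.37 in I and 5.83 in K, with no overlap. Its log2 fold change was 0.42 (SE 0.15, edgeR adjusted p 0.749). Over all genes, 0.792% were higher at an unadjusted p under 0.05, and 1.35% were higher with no overlap.

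**Figure D4:**
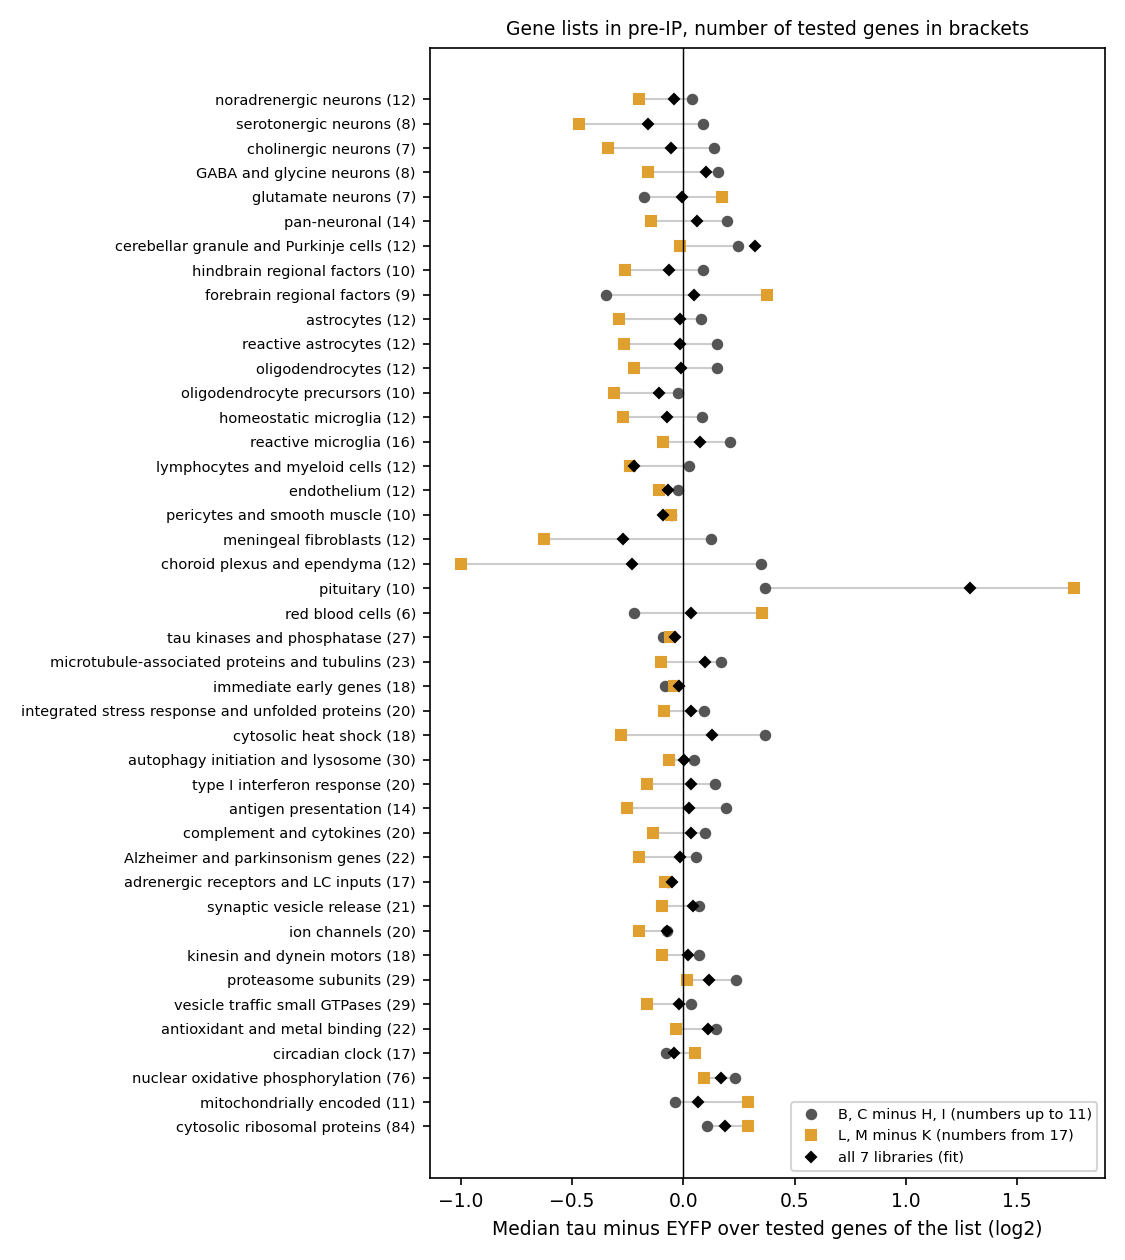
Median tau minus EYFP difference (log2) over the tested genes of each list except the construct and the sex-linked genes, in the fit of all 7 libraries (diamonds), in libraries numbered up to 11 (circles) and from 17 (squares). Most lists lie within 0.2 of 0 in the fit, and among the lists drawn the ranges differ most for choroid plexus and ependyma (0.35 and -0.998), pituitary (0.37 and 1.76) and meningeal fibroblasts (0.12 and -0.62).

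Enzymes that phosphorylate tau, and the phosphatase that reverses this, made up a list of 27 genes. At an unadjusted p under 0.05, 0 were higher and 6 lower, against 0.792% and 4.42% of all genes. Ppp2ca, the catalytic subunit of protein phosphatase 2A, had 132 CPM in B, 312 in C, 333 in L and 164 in M. It had 314 CPM in H, 341 in I and 534 in K. B and M were low, C and L lay near H and I, and K was high. The log2 fold change was -0.78 (SE 0.28, edgeR adjusted p 0.749). Cdk5r2, an activator of the tau kinase Cdk5, had 11.2 CPM in B, 25.6 in C, 34.4 in L and 15.6 in M. It had 29.1 CPM in H, 36.8 in I and 40.6 in K, with the same low animals. Its log2 fold change was -0.78 (SE 0.29, edgeR adjusted p 0.749). The median over the list was -0.04.

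Among 23 genes of tubulins and of proteins that bind microtubules, Mapt included, 19 had a log2 fold change above 0, with a median of 0.10 and 0 under 0.05. The median difference was 0.17 in the lower and -0.10 in the upper range. Among 18 kinesin and dynein motor genes the median was 0.02. Of these 18, 0 were higher and 1 lower at an unadjusted p under 0.05, against 0.792% and 4.42% of all genes. That was Kif1b, a kinesin that carries synaptic vesicle precursors, with a log2 fold change of -0.29 (SE 0.12; adjusted p 0.879 in edgeR). Pan-neuronal genes had a median of 0.06 over 14 genes, with 11 above 0. At an unadjusted p under 0.05, 0 were higher and 1 lower, against 0.792% and 4.42% of all genes. That was Nefh, the heavy neurofilament subunit, with a log2 fold change of -0.57 (SE 0.20; adjusted p 0.72 in edgeR). The other neurofilament genes of the list were at -0.07 (Nefl) and 0.06 (Nefm). The level of Nefh in K, 262 CPM, was above all other animals (69.8 to 119 CPM).

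Among 20 ion channel genes, 7 were lower and 0 higher at an unadjusted p under 0.05, against 4.42% and 0.792% of all genes. Their sum was highest in K, at 2058 CPM, and lowest in B, at 1004 CPM, with the other animals at 1183 to 1533. The median was -0.07, and 16 of 20 were below 0. The list median ran from -0.16 to -0.06 over the fits that left out an animal or changed another setting.

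Synaptic vesicle release genes had a median of 0.04 over 21 genes, with 1 lower at an unadjusted p under 0.05 (4.42% of all genes). That was Syn2, a synapsin (log2 fold change -0.51, SE 0.21, edgeR adjusted p 0.873). Immediate early genes, which mark recent neuronal activity, had a median of -0.02 over 18 genes. None of those 18 had an unadjusted p under 0.05.

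Stress pathways sense misfolded protein and slow translation or raise chaperones. The median over 20 genes of the integrated stress and unfolded protein responses was 0.04. Eif2ak3 encodes PERK, the endoplasmic reticulum kinase that starts that response. It had 6.71 CPM in B, 8.76 in C, 10.7 in L and 7.16 in M, and 11.1 CPM in H, 10.8 in I and 18.3 in K. The groups did not overlap, although L and I were adjacent. The log2 fold change was -0.72 (SE 0.18, edgeR adjusted p 0.673). No other gene of the list had an unadjusted p under 0.05. Thus 0 of 20 were higher and 1 lower, against 0.792% and 4.42% of all genes. Over all genes, 1.78% were lower in tau with no overlap.

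Cytosolic heat shock genes had a median of 0.13 over 18 genes, with 15 above 0. The ranges were opposite, at 0.37 in the lower and -0.28 in the upper. At an unadjusted p under 0.05, 0 of the 18 were higher and 1 lower, against 0.792% and 4.42% of all genes. That was Fkbp5, a co-chaperone of the glucocorticoid receptor, with a log2 fold change of -0.45 (SE 0.16; adjusted p 0.749 in edgeR). Proteasome subunits had a median of 0.12 over 29 genes, with 27 above 0 and 0 under 0.05.

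The autophagy and lysosome list of 30 genes had a median of 0.00, with 15 genes on either side of 0, and 0 higher and 3 lower at an unadjusted p under 0.05 (0.792% and 4.42% of all genes). Ulk2 was among these 3. Lamp1, an abundant protein of the lysosomal membrane, had 122 CPM in B, 213 in C, 306 in L and 176 in M. It had 267 CPM in H, 271 in I and 525 in K. Tau was below EYFP within each range, and L overlapped H and I. The log2 fold change was -0.86 (SE 0.21, edgeR adjusted p 0.673; DESeq2 adjusted p 0.0328).

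Small GTPases of vesicle traffic, 29 genes, had a median of -0.02, with 0 higher and 5 lower at an unadjusted p under 0.05 (0.792% and 4.42% of all genes). Arl5a, which acts at the trans-Golgi network, had 25.9 CPM in B, 39.7 in C, 33.3 in L and 21.4 in M, against 53.0 CPM in H, 54.3 in I and 47.7 in K. Rhoq, another small GTPase, had 24.5 CPM in B, 39.2 in C, 34.5 in L and 26.4 in M, against 49.7 CPM in H, 43.6 in I and 63.4 in K. Neither gene's groups overlapped, and K was the lowest EYFP animal for Arl5a but the highest for Rhoq. The log2 fold changes were -0.75 (SE 0.17) for Arl5a and -0.76 (SE 0.17) for Rhoq, with edgeR adjusted p-values of 0.673. DESeq2 called both, at adjusted p-values of 0.0328 and 0.0361.

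Antioxidant and metal-binding genes, 22 in all, had a median of 0.11, with 19 above 0. The 2 genes lower at an unadjusted p under 0.05 (4.42% of all genes were) encode the subunits of the same enzyme, glutamate-cysteine ligase, which limits the synthesis of glutathione. Gclc, the catalytic subunit, had 17.1 CPM in B, 33.1 in C, 33.3 in L and 21.1 in M, against 37.3 CPM in H, 36.6 in I and 56.7 in K. Gclm, the modifier subunit, had 26 CPM in B, 44.7 in C, 43.4 in L and 26.8 in M, against 48.1 CPM in H, 50.2 in I and 76.0 in K. For both genes every tau animal was below every EYFP animal, B and M were the lowest and K the highest. The log2 fold changes were -0.76 (SE 0.22) for Gclc and -0.74 (SE 0.21) for Gclm, with edgeR adjusted p-values of 0.673.

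Cytosolic ribosomal protein genes had a median of 0.19, with 82 of 84 tested genes above 0 and 0 under 0.05. Nuclear genes of oxidative phosphorylation had a median of 0.17, with 75 of 76 above 0 and 0 under 0.05. Their medians had the same sign in both ranges, 0.11 and 0.29 for ribosomal protein and 0.23 and 0.10 for oxidative phosphorylation genes. The sums per animal nevertheless overlapped. Ribosomal protein genes summed to 12790 to 15290 CPM in tau and 11140 to 14860 in EYFP animals. Those of oxidative phosphorylation summed to 36010 to 41220 and 28830 to 37210 CPM, with H the lowest animal. Without H the median of the oxidative phosphorylation genes was 0.06.

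Differences between the groups were also described by transcript properties, without a test. Protein-coding genes were divided into 5 bins of equal size by exon length. In the bin of shortest genes the median difference was 0.06 in the lower and 0.07 in the upper range, and in the longest it was -0.04 and -0.09. The relation to length thus had the same direction in both ranges. In 5 bins by GC content of the longest transcript, the median difference in the lower range went from 0.07 in the lowest to -0.07 in the highest bin. In the upper range it went from -0.10 to 0.04, the opposite way. In the fit of all 7 libraries the medians of the GC bins ran from -0.02 to 0.01, and those of the length bins went from 0.08 in the shortest to -0.06 in the longest. The 813 protein-coding genes lower at an unadjusted p under 0.05 had a median exon length of 5167 bases and a median GC content of 52.8%, against 4318 bases and 50.1% for all 15589. The 86 higher ones had medians of 2866 bases and 48.5%, at a median level of 2.86 CPM against 17 for all. The part of length and GC content in the differences of single genes was not tested.

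**Figure D5:**
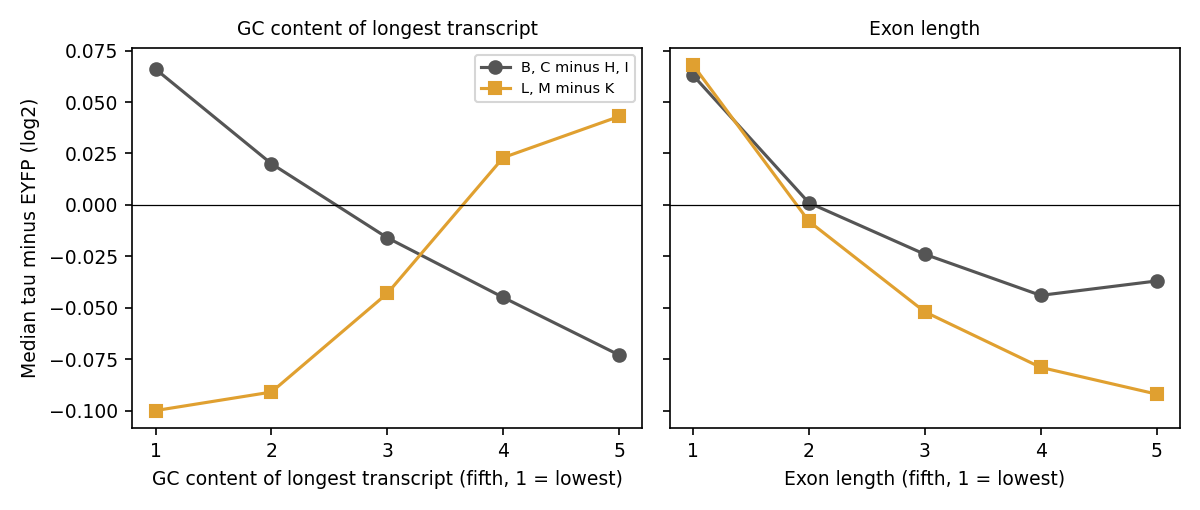
Median tau minus EYFP difference (log2) of protein-coding genes in 5 bins of GC content (left) and exon length (right), in libraries numbered up to 11 (circles) and from 17 (squares). The lines cross for GC content, from 0.07 to -0.07 and from -0.10 to 0.04, and both go down for exon length.

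Whether the contrast in the homogenate differed from that in the IP of the same animals was tested as an interaction over all 14 libraries. The IP library of EYFP animal I had an RNA integrity number of 4.2, and the other IP libraries had 7.7 to 9.0. IP libraries came from RNA at 0.1 to 2.8 ng per microliter, against 11.4 to 29.9 for the homogenates. Of 20495 genes, 0 passed an edgeR adjusted p of 0.05 (0.0%), with a smallest value of 0.182, and 1546 (7.54%) had an unadjusted p under 0.05. In this joint fit 351 genes (1.71%) had an unadjusted p under 0.05 for tau in the homogenate. The smallest p among the named genes belonged to Dbh, whose difference was -0.41 in the homogenate and 4.43 in the IP. The interaction, homogenate minus IP, was -4.83 (SE 0.84, edgeR adjusted p 0.182). IP levels of Dbh were 1516 CPM in B, 937 in C, 697 in L and 130 in M. In EYFP animals they were 34.8 CPM in H, 28.0 in I and 55.6 in K. For Slc6a2 the differences were -0.50 and 3.98 (interaction -4.48, SE 0.88, edgeR adjusted p 0.243). Its IP levels ran from 54.6 to 720 CPM in tau and from 15.4 to 32.6 in EYFP animals. The part of unequal enrichment of noradrenergic RNA by the IP in these differences was not tested. Eya2 had -0.68 in the homogenate and 2.01 in the IP (interaction -2.69, SE 0.53, edgeR adjusted p 0.243). For the construct the differences were 5.88 and 8.29 (interaction -2.41, SE 1.502, edgeR adjusted p 0.722). Anks6 had similar differences in both fractions, -1.16 and -1.04 (interaction -0.13, SE 0.42, edgeR adjusted p 0.966). This joint fit treated both libraries of an animal as independent. With the animal as replicate block, the edgeR adjusted p of the interaction was 0.381 for Dbh, 0.503 for Slc6a2 and 0.381 for Eya2.

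Genes picked by their homogenate p-value were then read in the IP, which came from separate libraries of the same animals. The 848 lower genes had a median IP difference of -0.40 and the 152 higher genes one of 0.18, where all 19197 genes had -0.09. Since the fractions share animals, these medians are no independent replication.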

How the data were processed

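Per the labels' protocols, polyadenylated RNA was column-purified and made into libraries with SMART-Seq v4 and Nextera XT kits. The submitters' processing notes name FastQC, Trim Galore, STAR, featureCounts and the builds GRCm38 and mm10, without versions. The authors deposited whole-number read counts per gene for 55421 mouse genes and the tau construct, not normalized. Strand use is not stated. The deposited sample sheet gives RNA integrity numbers (a quality score), RNA concentrations and the GC percent of reads. Of the gene names, 3755 came from GENCODE M21, whose coordinates equalled the deposited ones for 50973 genes.

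The 7 pre-IP libraries were fitted with edgeR 4.0.16 in R 4.3.3 (quasi-likelihood F test, filterByExpr, TMM, Benjamini-Hochberg, threshold 0.05), with library range as covariate. The fits were tested on simulated counts over 19197 genes, where 82% of genes changed 2-fold and 97% of those changed 4-fold were recovered, with 10.1% of calls false. For the interaction over 20495 genes 16% and 83% were recovered, with 6.6% false. The changed genes had a mean of at least 1 CPM, and many were changed at once, which eases the adjusted threshold. Counts were drawn independently for each gene, without shifts shared across genes within an animal. The recovered shares are therefore not the power in the real libraries. Log2 differences within ranges used CPM + 0.5.

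Named genes were the construct, Mapt, the 8 protein-coding genes per direction with the smallest p (mean of at least 1 CPM), and from each of 45 lists up to 2 members with the smallest p. Gh, Pou1f1, Ttr, Foxj1, Ccdc153, Dynlrb2, Cyb561, Th, Nefl, Nefm and Hoxb5 were added after their values were seen. Some genes that the rule selects are not reported here. Members, lists and the covariate were chosen with earlier results of these data known. Libraries of a group differed beyond sampling noise (chi-square per degree of freedom at least 24.6). Fractions of an animal were paired by the letter in the title, and within an animal their deviations from the means of their groups had correlations of 0.22 to 0.50, 0.31 on average. Alternatives were other covariates, filters, scalings and tools (DESeq2 1.42.0, limma 3.58.1) and leaving out each animal.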

Additional observations from a re-analysis of the deposited data

Results flagged for a closer look

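Among the 4 tau libraries, the gap of an extreme library to its nearest neighbour exceeded Dixon's 95% critical share of the whole range in 6 of 67 sets of values tested. Chance alone gives about 1 in 20 for independent, normally distributed values. The sets here were not independent, since Fshb and Cga are also part of the pituitary sum. Many were single genes picked for small p in the same libraries. The 6 of 67 can therefore not be set against that rate. L held 34.4 CPM of Fshb and 107 CPM of Cga, and its summed pituitary genes were at 5946 CPM, where the lowest tau library had 0.0377, 0.434 and 57.4 CPM. L was also lowest in the sum of pan-neuronal genes, at 8043 CPM against up to 9931. M was highest in the sum of hindbrain regional factors, at 108 CPM against a lowest of 73.0. B was highest for Zfp619, at 2.11 CPM against a lowest of 1.13.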

How the results depend on the processing

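Of the tau against EYFP contrast in the homogenate, 0 genes were called with the sex label, RNA integrity or no covariate, with DESeq2 size factors, robust hyperparameters, a mean of at least 50 counts, voom or all 14 libraries. The fit with the sex label took M as female, which the homogenate counts of M contradict. The IP library of M held counts of both Y-linked genes and Xist. DESeq2 called 20, no filter on low counts 395 (prior degrees of freedom then infinite), libraries numbered up to 11 alone 2, and leaving out each animal 0 to 2. The 848 lower genes at an unadjusted p under 0.05 became 434 without a covariate, 285 with all 14 libraries and 467 to 1093 without an animal (467 without B). The 152 higher genes became 409 without a filter, 86 at a mean of 50 counts, 66 with all 14 libraries, 815 in libraries numbered up to 11 and 86 to 580 without an animal (86 without B, 420 without I, 580 without K). Alternatives were read for 40 of the genes chosen by the naming rule. These were the ones at an edgeR unadjusted p under 0.05, the construct, Mapt and those from the noradrenergic list. Most were thus picked for small p in the same data, and none passed the threshold in the main fit. The values that follow describe them and test nothing. Of 716 alternative values, 670 kept their direction and side of the threshold, 44 passed it in addition, and 2 changed sign. Both were Slc6a2, at 0.01 (0.011) in libraries numbered up to 11 and from -0.67 to 0.01 (0.006, without K) when an animal was left out. The construct's exact permutation p was 0.0286 with library totals and with log2 CPM, and 0.1 to 0.133 without an animal. For the interaction, the fit with the animal as replicate block also called 0, with a smallest edgeR adjusted p of 0.333; no other blocked fit was run. DESeq2 called 63, no filter 243 and leaving out each animal 0 to 60 (60 without M). The causes were not tested. Without K the upper range has no EYFP library, so the contrast then rests on B and C against H and I. With 4 and 3 animals, 2-fold differences were mostly recovered in simulated counts for the homogenate but mostly not for the interaction. Those counts held no shifts shared across genes within an animal, so they do not give the power in the real libraries.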
